A study of Mus musculus with 16 samples.

Results

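The circadian clock genes Arntl, Clock, Per1, Per2, Per3, Cry1, Cry2, Nr1d1, Nr1d2 and Dbp were followed array by array in the lungs of newborn mice. They were taken as the array features whose platform gene symbol is one of these 10 names, which gives 14 of the 31465 features that name a gene. Per1, Cry2, Dbp and Nr1d2 each have a second feature, and every gene is described by its feature with the highest mean. All 14 features passed the filter on low values, so that the clock genes make up 10 of the 20173 genes tested.

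The samples were homogenised lungs of 3-day-old (P3) mouse pups, each read on 1 one-colour Agilent microarray. The 4 groups held 4 arrays each: pups labelled Fgf10+/- in hyperoxia, pups labelled Fgf10+/- in normoxia, wild-type (WT) pups in hyperoxia, and WT pups in normoxia. Hyperoxia was 85% oxygen in a chamber between day 0 and day 3. The label Fgf10+/- stands for 1 inactive Fgf10 allele throughout the body. FGF10 is secreted by lung mesenchyme and drives airway branching. Strain, litter and the time of day of collection were not given in the sources used here. Separate litters are not stated for the replicates, so a p-value here reflects no more than the spread among these samples, which may be technical.

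In mammals ARNTL (BMAL1) and CLOCK form a transcription factor that binds E-box sequences and drives the genes for the PER and CRY proteins, which return to the nucleus and repress it. The same factor drives Nr1d1 and Nr1d2, whose products REV-ERB alpha and beta repress Arntl through ROR elements, and Dbp, an output transcription factor that binds D-box sequences. In tissues with a running clock, the lung included, Arntl is therefore known to peak at the opposite time of day to Dbp and the Nr1d genes. A level measured at 1 time of day cannot tell a shifted clock from one of smaller amplitude, and the part of collection time in the differences below was not tested.

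The arrays carried high signals of lung epithelium, with Sftpc at 15.97 to 15.99 and Scgb1a1 at 15.87 to 15.98 (log2 intensity, lowest and highest of 16 arrays), close to the top of the scale. The heart muscle gene Myh6 was also present in every array, at 12.22 to 13.57. The WT normoxia array of replicate 4 stood apart, with a mean of 7.85 over 7 skeletal muscle genes, against 4.66 to 5.33 in the other 15 arrays, and 7.57 over 5 brown fat genes. The hyperoxia array of replicate 4 labelled Fgf10+/- also stood apart, with a mean of 11.03 over 5 heart muscle genes, more than 1 log2 unit above each of the other 15 arrays (9.09 to 9.49 in the other 3 of its group). Its excess over the WT normoxia arrays came mainly from 1 of the 5 genes, Nppa. Nppa reached 10.96 in this array, against group means of 4.75 to 5.49 in the other groups. The heart muscle mean also differed between groups. It was at least 9.69 in each WT normoxia array, at most 9.44 in WT hyperoxia and at most 9.59 in normoxia arrays labelled Fgf10+/-. Apart from that 1 array, WT normoxia was thus highest, as it was for Dbp and Nr1d2 below. The part of this group difference in the clock gene values was not tested. Within groups, replicates correlated over all tested genes with r between 0.974 and 0.983. Fgf10 itself did not separate the labels: its highest feature stood at 8.28 ± 0.32 in arrays labelled Fgf10+/- and 7.80 ± 0.39 in WT arrays in normoxia (log2, SD, n = 4 each, limma adjusted p = 0.334). In hyperoxia the values were 7.64 ± 0.26 in arrays labelled Fgf10+/- and 7.85 ± 0.18 in WT arrays (n = 4 each, limma adjusted p = 0.835). Whether these features lie in the inactivated part of the gene was not given in the sources used here, and the genotypes are therefore called by their labels.

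Promoter sequence of RefSeq (GRCm38.p6), running 250 bases before to 50 bases after the annotated start, was at hand for 9 of the 10 genes, in 13 windows, and not for Per2. It was searched on both strands for 3 elements of the clock: the E-box CACGTG, the D-box TTATGNAA, and the ROR element, searched as AAAGTAGGT. The ROR letters follow the element known from the Arntl promoter itself, so that finding it there is no new observation. The windows of the 3 genes whose signals moved most, and of Per1 as the one clock gene window with both an E-box and a D-box, are printed 5' to 3' with matches in capitals. They are chr7:113207261-113207560 (plus strand) for Arntl, chr7:45704997-45705296 (plus strand) for Dbp, chr14:18239057-18239356 (minus strand) for Nr1d2 and chr11:69098699-69098998 (plus strand) for Per1.
Arntl: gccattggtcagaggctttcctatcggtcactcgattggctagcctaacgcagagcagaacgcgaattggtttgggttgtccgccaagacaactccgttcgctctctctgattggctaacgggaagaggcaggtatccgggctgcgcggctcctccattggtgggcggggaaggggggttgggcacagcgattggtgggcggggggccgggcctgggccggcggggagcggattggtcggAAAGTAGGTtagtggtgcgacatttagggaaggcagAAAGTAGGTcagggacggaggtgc
Dbp: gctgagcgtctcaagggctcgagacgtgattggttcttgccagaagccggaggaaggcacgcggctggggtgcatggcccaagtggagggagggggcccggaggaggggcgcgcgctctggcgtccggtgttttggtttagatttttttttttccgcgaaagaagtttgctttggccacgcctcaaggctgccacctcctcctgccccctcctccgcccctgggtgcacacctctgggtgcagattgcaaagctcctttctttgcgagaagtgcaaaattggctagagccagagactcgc
Nr1d2: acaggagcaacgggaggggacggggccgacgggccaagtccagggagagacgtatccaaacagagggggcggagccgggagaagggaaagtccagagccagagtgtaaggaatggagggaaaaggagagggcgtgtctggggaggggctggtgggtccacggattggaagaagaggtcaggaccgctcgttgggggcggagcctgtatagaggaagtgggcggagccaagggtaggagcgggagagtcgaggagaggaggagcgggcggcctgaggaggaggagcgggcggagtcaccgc
Per1: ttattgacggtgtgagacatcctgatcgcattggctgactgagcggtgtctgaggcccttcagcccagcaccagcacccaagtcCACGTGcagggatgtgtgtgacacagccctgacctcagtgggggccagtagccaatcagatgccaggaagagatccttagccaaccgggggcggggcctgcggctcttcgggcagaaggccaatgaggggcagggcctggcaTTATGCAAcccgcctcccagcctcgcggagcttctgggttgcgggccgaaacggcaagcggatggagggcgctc

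The Arntl window holds the ROR element letters 2 times, with first bases at positions -10 and 27 counted from the annotated start. Only 0.183% of all 32851 promoter windows of that length hold these letters. The Per1 window has an E-box at position -166 and a D-box at position -24. A window of Per3 has 2 D-boxes, at positions -205 and -158, and one of Cry1 has an E-box at position -60. Over all windows 7.15% hold the E-box and 3.38% the D-box. None of the 3 elements was found in the windows of Dbp, Nr1d2, Nr1d1, Clock and Cry2, which says only that these letters are not in those stretches.

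In hyperoxia the WT lungs had higher Arntl and Clock and much lower Dbp and Nr1d2 signals than in normoxia. Lungs labelled Fgf10+/- had lower Nr1d2 in hyperoxia than in normoxia, and in normoxia they had less Cry2 than WT lungs. The Clock and Cry2 calls were lost under some of the other settings given below. A gene was counted as changed at an adjusted p under 0.05 in limma, with Benjamini-Hochberg adjustment over all tested genes. In WT pups 2 of 10 clock genes rose and 2 fell under hyperoxia, where 10.3% of all genes rose and 8.74% fell (19.1% in all). At an unadjusted p under 0.05 there were 5 clock genes, against 31.1% of all genes. The 4 hyperoxia arrays lay beyond the 4 normoxia arrays on the higher side for 1 clock gene and on the lower side for 3, against 13.6% and 11.2% of all genes. In pups labelled Fgf10+/- limma called no clock gene higher and 1 lower, where 13% of all genes rose and 10.7% fell (23.7% in all), and 4 clock genes had an unadjusted p under 0.05, against 34.2% of all genes. The arrays of these pups did not overlap for 1 clock gene, on the lower side, against 11.1% of all genes on that side and 13.8% on the higher side. The count of 4 in 10 in WT pups is above that background and the count of 1 in 10 in pups labelled Fgf10+/- is below it, and with so few genes nothing is read from either. All comparisons share arrays with one another, so their values are given side by side and not as independent evidence.

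**Figure D1:**
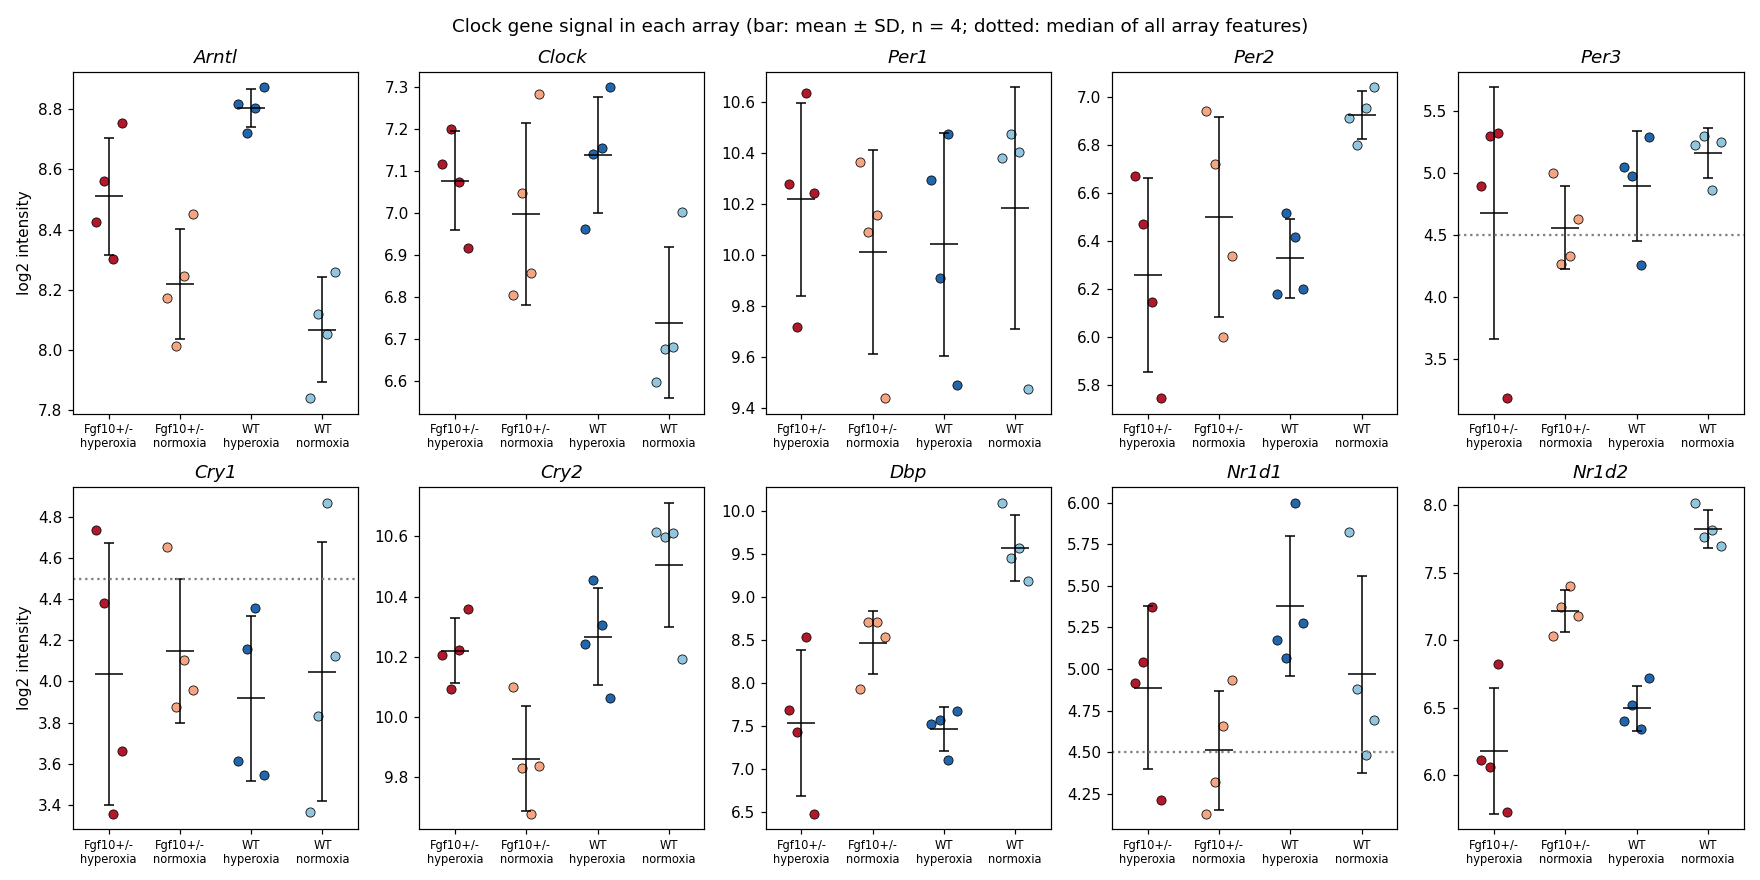
Log2 intensity of the 10 clock genes in each of the 16 arrays, by group (points: arrays, bar: mean ± SD, n = 4, dotted line: median of all array features). Dbp and Nr1d2 were highest in the WT normoxia arrays, and Arntl was highest in the WT hyperoxia arrays.

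Arntl encodes the activator BMAL1 that the whole loop depends on. Its signal was 8.42, 8.56, 8.30 and 8.75 in hyperoxia arrays labelled Fgf10+/-, and 8.17, 8.01, 8.25 and 8.45 in normoxia arrays labelled Fgf10+/- (log2 intensity, replicates 1 to 4). In WT pups it was 8.82, 8.72, 8.80 and 8.87 in hyperoxia, against 7.84, 8.12, 8.05 and 8.26 in normoxia. The WT groups did not overlap, and among the other 12 arrays only the hyperoxia array of replicate 4 labelled Fgf10+/- reached the range of WT hyperoxia. Arntl rose 1.67-fold in WT hyperoxia, a log2 difference of 0.74 (SE 0.12, 95% interval 0.47 to 1.00, limma adjusted p = 0.000831, exact two-sided permutation p = 0.0286, the smallest that 4 against 4 arrays allow). In pups labelled Fgf10+/- the groups overlapped and the difference was 0.29 (SE 0.12, 95% interval 0.03 to 0.55, limma adjusted p = 0.107).

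Clock encodes the partner of BMAL1, and in many tissues its RNA is known to vary little over the day. It stood at 7.12, 7.20, 7.07 and 6.92 in hyperoxia arrays labelled Fgf10+/-, and at 6.80, 7.05, 6.86 and 7.28 in normoxia arrays with that label. WT hyperoxia arrays gave 6.96, 7.14, 7.16 and 7.30, against 6.60, 6.68, 6.68 and 7.0 in WT normoxia. The WT groups overlapped at 1 array on each side. The difference was 0.08 in pups labelled Fgf10+/- (SE 0.13, limma adjusted p = 0.718), and Clock rose by 0.40 in WT hyperoxia (SE 0.13, adjusted p = 0.0388). Leaving out 1 array in turn, 6 of 16 fits lost the WT call, namely those without WT hyperoxia replicate 2, 3 or 4 or WT normoxia replicate 1, 2 or 3 (adjusted p up to 0.104).

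Dbp, the D-box binding output gene, showed the largest difference of all 10. Its signal was 7.69, 7.44, 8.54 and 6.49 in hyperoxia arrays labelled Fgf10+/-, and 7.93, 8.70, 8.71 and 8.53 in normoxia arrays with that label. In WT arrays it was 7.53, 7.57, 7.10 and 7.67 in hyperoxia, against 10.09, 9.45, 9.56 and 9.18 in normoxia. The WT normoxia arrays lay above all 12 others, and the WT groups were more than 1 log2 unit apart at their nearest arrays. Dbp fell 4.30-fold in WT hyperoxia, a log2 difference of -2.10 (SE 0.34, 95% interval -2.83 to -1.37, limma adjusted p = 0.000678). Its second feature gave 7.34, 7.62, 7.26 and 7.84 in WT hyperoxia, against 9.82, 9.06, 8.84 and 8.96 in WT normoxia, a difference of -1.66.

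In pups labelled Fgf10+/- the Dbp groups overlapped, because replicate 3 of the hyperoxia arrays (8.54) lay within the normoxia range. The difference was -0.93 (SE 0.34, 95% interval -1.66 to -0.20, limma adjusted p = 0.0628). Without that array it was -1.26 (adjusted p = 0.00835), and without replicate 1 of the normoxia arrays -1.11 (adjusted p = 0.0403). The second feature differed by -0.97. Ordered by mean level, Dbp was lowest in hyperoxia, at 7.54 ± 0.84 in arrays labelled Fgf10+/- and 7.47 ± 0.25 in WT arrays (SD, n = 4 each), which differed by 0.07, far less than their spread. Normoxia arrays labelled Fgf10+/- followed at 8.47 ± 0.37, and WT normoxia arrays were highest at 9.57 ± 0.38.

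Nr1d2 encodes REV-ERB beta, a repressor of Arntl. It read 6.11, 6.06, 6.83 and 5.72 in hyperoxia arrays labelled Fgf10+/-, and 7.03, 7.25, 7.40 and 7.18 in normoxia arrays with that label. WT pups had 6.40, 6.52, 6.34 and 6.72 in hyperoxia, against 8.02, 7.77, 7.82 and 7.70 in normoxia. In both genotypes every hyperoxia array lay below every normoxia array. Nr1d2 fell by 1.33 on the log2 scale in WT hyperoxia (SE 0.19, limma adjusted p = 0.000241). In pups labelled Fgf10+/- it fell by 1.04 (SE 0.19, limma adjusted p = 0.000997), the only clock gene called in that comparison.

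A second Nr1d2 feature differed by -0.50 in hyperoxia of pups labelled Fgf10+/- and by -0.93 in WT hyperoxia, with overlapping groups in both. Nr1d1, the gene for REV-ERB alpha, did not pass in any comparison. Its signal was 4.92, 5.05, 5.37 and 4.21 in hyperoxia arrays labelled Fgf10+/-, against 4.13, 4.32, 4.66 and 4.94 in normoxia arrays with that label. WT arrays gave 5.18, 5.07, 6.0 and 5.27 in hyperoxia, against 5.82, 4.88, 4.48 and 4.69 in normoxia. These values lie near the median of all array features (4.50), where the signal is dim, and the groups overlapped. The differences were 0.38 in pups labelled Fgf10+/- (SE 0.31, limma adjusted p = 0.446) and 0.41 in WT pups (SE 0.31, adjusted p = 0.423).

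Of the period genes, whose proteins repress BMAL1 and CLOCK, Per2 came nearest to a change. It stood at 6.67, 6.47, 6.15 and 5.74 in hyperoxia arrays labelled Fgf10+/-, and at 6.94, 6.72, 6.0 and 6.34 in normoxia arrays with that label. WT arrays had 6.18, 6.52, 6.42 and 6.20 in hyperoxia, against 6.91, 6.80, 6.96 and 7.04 in normoxia. The WT groups did not overlap, but the difference of -0.60 missed the threshold (SE 0.21, limma adjusted p = 0.0612, exact permutation p = 0.0286). In pups labelled Fgf10+/- the groups overlapped and the difference was -0.24 (SE 0.21, adjusted p = 0.468).

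Per1, which is also known as a target of glucocorticoids, ranged between 9.71 and 10.64 in hyperoxia arrays and between 9.44 and 10.36 in normoxia arrays labelled Fgf10+/-. In WT pups it lay between 9.49 and 10.48 in hyperoxia, against 9.47 and 10.47 in normoxia. The differences were 0.21 in pups labelled Fgf10+/- (SE 0.28, limma adjusted p = 0.669) and -0.14 in WT pups (SE 0.28, adjusted p = 0.798). The spread between replicates was larger than both. Per3 was dim, between 3.18 and 5.32 over all 16 arrays, and gave 0.12 (SE 0.39, adjusted p = 0.871) in pups labelled Fgf10+/- and -0.27 (SE 0.39, adjusted p = 0.707) in WT pups.

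The cryptochromes are the stronger repressors of the loop. Cry2 read 10.21, 10.09, 10.22 and 10.36 in hyperoxia arrays labelled Fgf10+/-, and 10.10, 9.83, 9.68 and 9.84 in normoxia arrays with that label. WT arrays gave 10.24, 10.46, 10.30 and 10.06 in hyperoxia, against 10.61, 10.60, 10.61 and 10.19 in normoxia. The oxygen groups overlapped in both genotypes, narrowly in pups labelled Fgf10+/-. There the difference was 0.36 (SE 0.13, limma adjusted p = 0.0522), while it was -0.24 in WT pups (SE 0.13, adjusted p = 0.220). Cry1 lay between 3.36 and 4.87 over all arrays, under or near the median of all features, with no difference past the threshold (-0.11, SE 0.34, in pups labelled Fgf10+/-, adjusted p = 0.859, and -0.13, SE 0.34, in WT pups, adjusted p = 0.853).

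**Figure D2:**
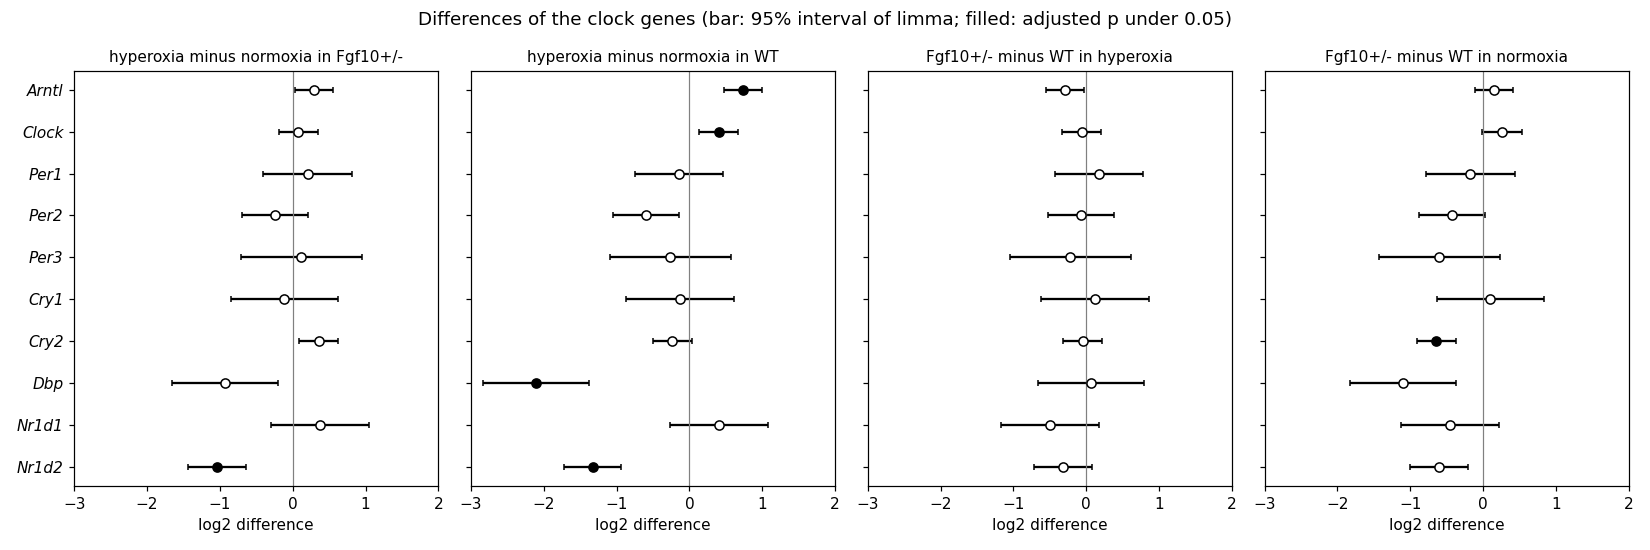
Log2 differences of the 10 clock genes in 4 comparisons (points: limma estimate, bars: 95% interval, filled: adjusted p under 0.05). Dbp and Nr1d2 lie left of 0 in both oxygen comparisons, and Cry2 is the one filled point between the genotypes.

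Between the genotypes in normoxia, limma called 1 clock gene lower and none higher, with 3 at an unadjusted p under 0.05 (12.9% of all genes), where 0.605% of all genes fell and 0.719% changed in either direction. This was Cry2, at 9.86 ± 0.17 in arrays labelled Fgf10+/- and 10.50 ± 0.21 in WT arrays (SD, n = 4 each), a difference of -0.64 (SE 0.13, limma adjusted p = 0.0310, exact permutation p = 0.0286). The 4 arrays labelled Fgf10+/- lay below the 4 WT arrays. Its second feature differed by -0.28, with the arrays labelled Fgf10+/- at 7.84 to 7.98, against 7.93 to 8.52 in WT arrays, so these groups overlapped. With the mean of both features the call was lost (-0.46, adjusted p = 0.0737), and likewise when only the 8 normoxia arrays were fitted (adjusted p = 0.174). Leaving out 1 array in turn, 8 of 16 fits lost it, namely those without WT hyperoxia replicate 1 or 3, WT normoxia replicate 1, 2 or 3, or normoxia replicate 2, 3 or 4 labelled Fgf10+/- (adjusted p up to 0.112).

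Dbp and Nr1d2 were also lower in every normoxia array labelled Fgf10+/- than in every WT normoxia array, which makes 3 clock genes without overlap on the lower side, against 4.52% of all genes. Dbp averaged 8.47 ± 0.37 in arrays labelled Fgf10+/- and 9.57 ± 0.38 in WT arrays, a difference of -1.10 that did not pass over all genes (SE 0.34, limma adjusted p = 0.161). Nr1d2 averaged 7.22 ± 0.15 in arrays labelled Fgf10+/- and 7.82 ± 0.14 in WT arrays, a difference of -0.61 (SE 0.19, limma adjusted p = 0.157). The second Nr1d2 feature also differed by -0.61, but its groups overlapped, at 6.10 to 7.02 in arrays labelled Fgf10+/- and 6.89 to 7.48 in WT arrays. The second Dbp feature differed by -0.73 without overlap. The other 7 genes overlapped, with differences between -0.60 for Per3 and 0.26 for Clock.

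In hyperoxia no clock gene differed between the genotypes in limma, where 0.411% of all genes did. At an unadjusted p under 0.05 there was 1, against 9.01% of all genes, and no clock gene was free of overlap, against 5.98% of all genes. The 1 was Arntl, at 8.51 ± 0.19 in arrays labelled Fgf10+/- and 8.80 ± 0.06 in WT arrays (SD, n = 4 each), a difference of -0.29 (95% interval -0.56 to -0.03, limma adjusted p = 0.482). Dbp differed by 0.07 (95% interval -0.66 to 0.80) and Nr1d2 by -0.32 (95% interval -0.71 to 0.08).

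Whether the oxygen response differed between the genotypes was tested by the interaction term in limma. It called 0 of 10 clock genes and 0% of all genes, and at an unadjusted p under 0.05 it took 3 clock genes, against 6.62% of all genes. These were Cry2 (0.60, SE 0.18, limma adjusted p = 0.618), Arntl (-0.45, SE 0.17, adjusted p = 0.726) and Dbp (1.17, SE 0.48, adjusted p = 0.734). The signs mean a smaller rise of Arntl and a smaller fall of Dbp in pups labelled Fgf10+/-. None of these passed, so the larger WT differences of Arntl and Dbp were not shown to differ from those in pups labelled Fgf10+/-.

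Array by array, Arntl and Dbp were then compared within groups, as deviations from the group mean. Over 16 arrays the correlation of Arntl with Dbp was r = -0.68 (permutation p = 0.0221) and rho = -0.59 (permutation p = 0.0522). Without the 2 arrays farthest from the median of Arntl, WT normoxia replicate 1 and hyperoxia replicate 4 labelled Fgf10+/-, it was -0.50. With Nr1d2 the correlation was r = -0.59 (permutation p = 0.0449, rho -0.42). Of the 9 relations of Arntl to other clock genes, none passed after Benjamini-Hochberg adjustment (0.138 at the lowest for r and 0.241 for rho). The hyperoxia array of replicate 4 labelled Fgf10+/- had the highest Arntl of its group (8.75) and the lowest Dbp (6.49) and Nr1d2 (5.72) of all 16 arrays. It is also the array with the highest heart muscle mean (11.03, raised mainly by Nppa), whose part in these values was not tested. Without it the hyperoxia differences in pups labelled Fgf10+/- were 0.21 for Arntl (limma adjusted p = 0.264), -0.58 for Dbp (adjusted p = 0.172) and -0.89 for Nr1d2 (adjusted p = 0.00270), and Nr1d2 was again the 1 clock gene called.

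**Figure D3:**
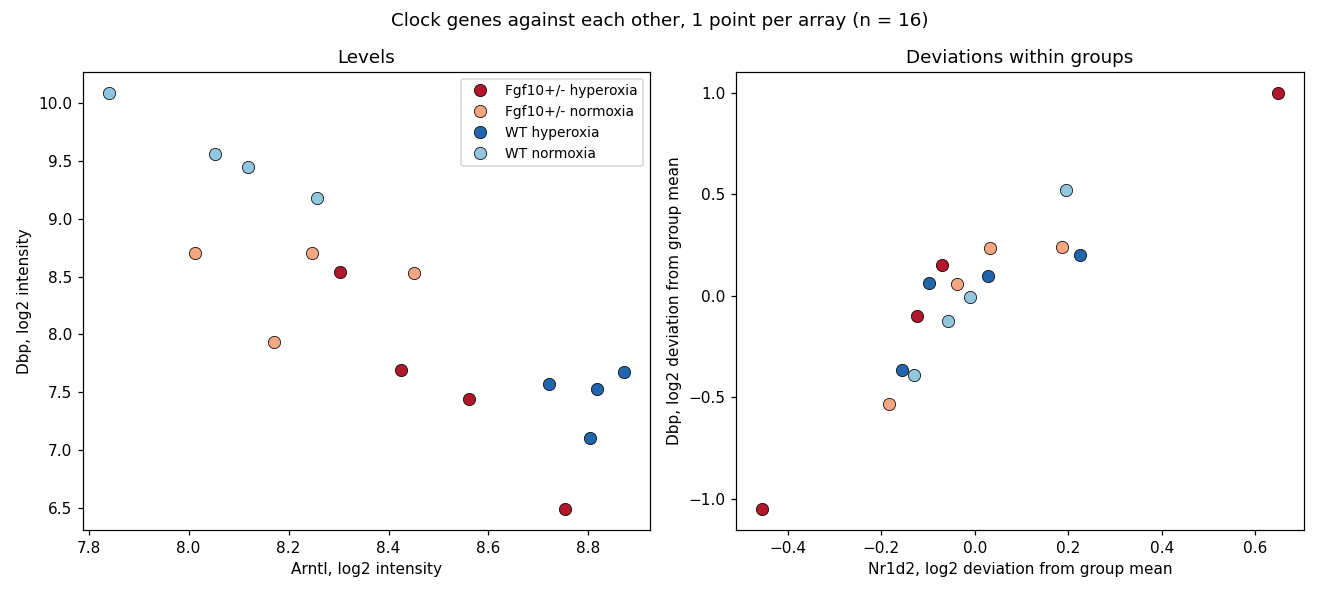
Left, Dbp against Arntl, and right, the deviations of Dbp and Nr1d2 from their group means, all in log2 units with 1 point per array (n = 16). The WT normoxia arrays lie apart at the highest Dbp, between 9.18 and 10.09, and Dbp and Nr1d2 deviated from their group means in the same direction in most arrays.

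How much a clock gene varied between replicates differed by gene. The pooled SD within groups was 0.162 for Arntl, 0.167 for Cry2 and 0.168 for Clock (log2 units), below the median of 0.290 over all tested genes. It was 0.268 for Nr1d2, 0.307 for Per2, 0.424 for Per1 and 0.472 for Nr1d1. The widest spreads were those of Dbp (0.514), Cry1 (0.520) and Per3 (0.587), the last 2 of which are dim.

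Genes whose 16 values ran most like Arntl were found by Pearson correlation over all arrays, group differences included, among 18533 named genes. They were the sialyltransferase gene St3gal3 (r = 0.91), the G protein signalling regulator Rgs9 (0.90), the cell polarity gene Pard3 (0.89), the kinase gene Camk2a (0.89) and the ubiquitin ligase gene Rnf135 (0.88). For Dbp they were the ribosomal protein genes Rpl26 (0.92) and Rpl29 (0.90), the retinol dehydrogenase gene Rdh10 (0.90), Fam162b (0.90) and the prefoldin gene Pfdn5 (0.88). Tef, which encodes a transcription factor of the same family as DBP, came at rank 15 for Dbp (r = 0.86). The arrays share their groups, so these values describe the pattern over groups.

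Of 22 further genes of the clock and its protein turnover, 20 were tested. In WT hyperoxia limma called none higher and 3 lower, against 10.3% and 8.74% of all genes, with 4 at an unadjusted p under 0.05, against 31.1% of all genes (median -0.08, against 0.03 over all genes). Tef stood at 11.10, 11.56, 11.29 and 11.26 in WT hyperoxia, against 12.55, 12.37, 12.40 and 12.54 in WT normoxia, and fell by 1.16 (SE 0.15, limma adjusted p = 0.000164). Hlf, the third member of the DBP family, fell by 1.12 (SE 0.28, adjusted p = 0.0120), with 5.08, 6.27, 4.92 and 5.51 in WT hyperoxia, against 6.24, 6.49, 6.48 and 7.04 in WT normoxia. With Dbp, all 3 PAR bZIP genes thus fell in WT hyperoxia, Tef without overlap and Hlf with an overlap of 1 array. Timeless, which in mammals is known mainly for DNA replication, fell by 0.70 (SE 0.16, adjusted p = 0.00756).

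In hyperoxia of pups labelled Fgf10+/-, 2 of these 20 genes rose and 4 fell, against 13% and 10.7% of all genes (median -0.23, against 0.03 over all genes). At an unadjusted p under 0.05 in limma there were 12 of the 20, against 34.2% of all genes. The deubiquitinase gene Usp2, in mice a rhythmic gene, stood at 6.91, 6.90, 6.55 and 7.36 in hyperoxia, against 6.40, 5.75, 6.04 and 5.69 in normoxia. These groups did not overlap, and Usp2 rose by 0.96 (SE 0.19, limma adjusted p = 0.00213). Tef fell by 0.60 (SE 0.15, adjusted p = 0.0110), with 11.37, 11.31, 11.74 and 11.60 in hyperoxia, against 11.66, 12.36, 12.08 and 12.29 in normoxia, an overlap of 1 array on each side. When only these 8 arrays were fitted, Tef no longer passed (adjusted p = 0.0572). Timeless fell by 0.85 (SE 0.16, adjusted p = 0.00162).

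The other 3 calls in pups labelled Fgf10+/- were Bhlhe40 (0.73, SE 0.25, limma adjusted p = 0.0496), a repressor of E-box genes, Rorb (-0.75, SE 0.24, adjusted p = 0.0372), a receptor for ROR elements, and Fbxw11 (-0.29, SE 0.10, adjusted p = 0.0443), a ubiquitin ligase subunit. The interaction passed for 0 of the 20 genes in limma, with 3 at an unadjusted p under 0.05, against 6.62% of all genes. When 1 array was left out in turn, 13 of 16 fits lost Bhlhe40, 6 lost Rorb and 12 lost Fbxw11. Hlf differed by -0.74 (SE 0.28, adjusted p = 0.0717) and Rora, the receptor gene that drives Arntl, by 0.57 (SE 0.20, adjusted p = 0.0515). Between the genotypes 0 of the 20 genes passed in limma, with 3 in normoxia and 2 in hyperoxia at an unadjusted p under 0.05, against 12.9% and 9.01% of all genes. In normoxia the arrays labelled Fgf10+/- lay below the WT arrays without overlap for Usp2 (-0.58, SE 0.19, limma adjusted p = 0.192), Tef (-0.37, SE 0.15, adjusted p = 0.331) and Ciart (-0.25, SE 0.21, adjusted p = 0.679), against 4.52% of all genes. They lay above the WT arrays for Nfil3 (0.25, SE 0.13, adjusted p = 0.447), a repressor at D-boxes, against 3.02% of all genes.

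**Figure D4:**
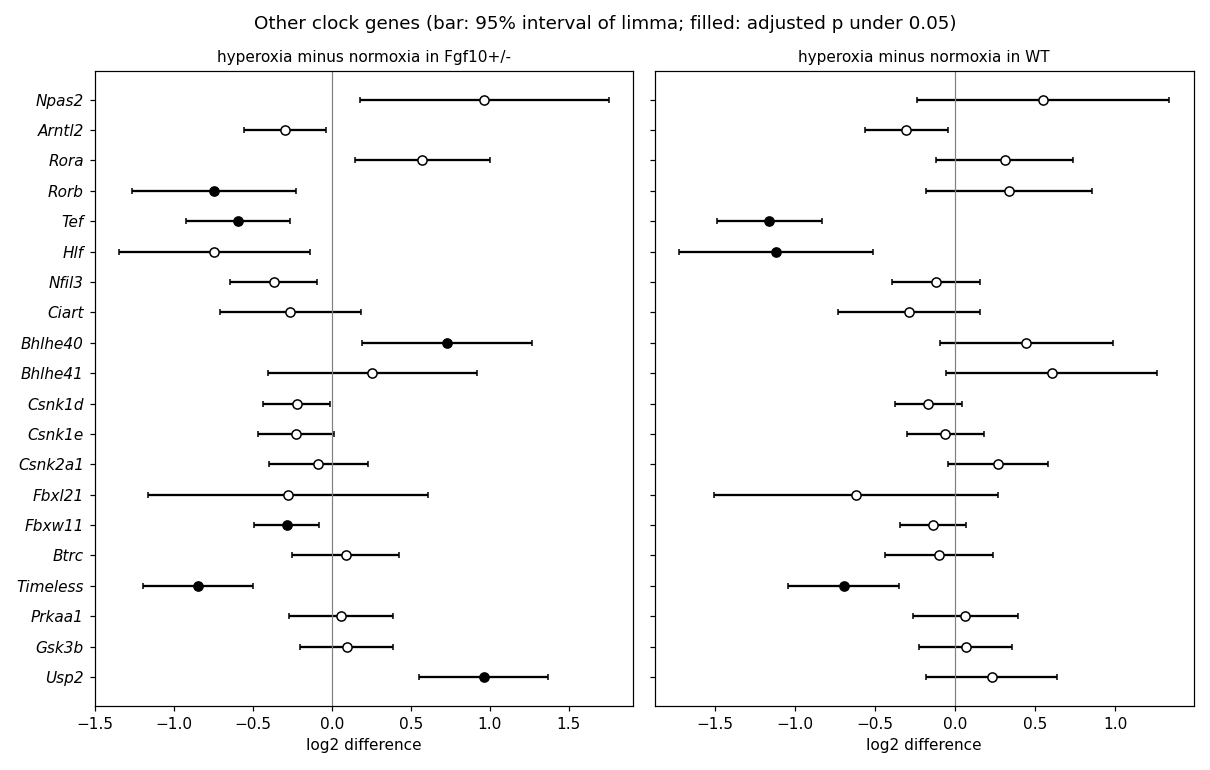
Log2 differences under hyperoxia of 20 further clock genes in pups labelled Fgf10+/- (left) and in WT pups (right), with 95% intervals of limma and filled points for an adjusted p under 0.05. Tef and Timeless are filled in both panels, and Hlf is filled in the WT panel, while its interaction of 0.37 (SE 0.40, limma adjusted p = 0.895) did not pass.

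Genes of mitosis were lower at the same time. All 10 that were tested fell in both oxygen comparisons, where 10.7% of all genes fell in pups labelled Fgf10+/- and 8.74% in WT pups. Their medians were -1.60 in pups labelled Fgf10+/- and -2.24 in WT pups, and Timeless moved with them in both comparisons. With the mean of all kept features the Timeless call was lost in both (-0.45, limma adjusted p = 0.0720, in pups labelled Fgf10+/-, and -0.36, adjusted p = 0.175, in WT pups). Between the genotypes, 6 of the 10 rose in arrays labelled Fgf10+/- in hyperoxia (median 1.34) and 1 in normoxia (median 0.61). Of all genes 0.411% and 0.719% changed there in either direction. When only the groups compared were fitted, each of these genotype calls was lost (limma adjusted p between 0.143 and 0.232).

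Some markers of lung cell types moved in the same comparisons. Under hyperoxia 13% of all genes rose and 10.7% fell in pups labelled Fgf10+/-, and 10.3% rose and 8.74% fell in WT pups. A count of 1 in 5 is near the share called in either direction (23.7% and 19.1%), and nothing is read from it. Of 4 club cell genes, 3 rose under hyperoxia in either genotype (medians 0.92 in pups labelled Fgf10+/- and 0.74 in WT pups). Their mean level lay at 13.90 to 13.99 in hyperoxia and 12.70 to 13.25 in normoxia arrays labelled Fgf10+/-, and at 13.91 to 14.22 in hyperoxia and 13.09 to 13.47 in normoxia of WT pups. Of 5 ciliated cell genes, 4 rose in pups labelled Fgf10+/- and 3 in WT pups (medians 1.39 and 1.27), and of 5 alveolar type 1 genes likewise 4 and 3 (medians 0.61 and 0.51). Of 5 genes each, 2 mesenchymal, 2 endothelial and 1 leukocyte gene fell in each genotype, and the others did not pass. In pups labelled Fgf10+/- and in WT pups the medians were -0.38 and -0.30 (mesenchymal), -0.01 and -0.15 (endothelial), and -0.14 and 0.18 (leukocyte). Single leukocyte and endothelial genes were higher in WT hyperoxia, by up to 0.64 and 0.17. Of 5 alveolar type 2 genes, 2 rose in pups labelled Fgf10+/- and 1 in WT pups (medians 0.24 and 0.11). Between the genotypes, limma called 2 of 5 alveolar type 2 genes lower in arrays labelled Fgf10+/- at either oxygen level. The medians were -0.37 in normoxia, where 0.605% of all genes fell, and -0.14 in hyperoxia, where 0.411% changed. In normoxia their mean level lay at 13.72 to 13.88, against 14.15 to 14.24 in WT arrays. Of 5 alveolar type 1 genes 1 was lower in normoxia (median -0.28). Of 5 heart muscle genes, 2 fell in WT hyperoxia (median -0.53). There 3 were without overlap on the lower side and 1 on the higher, against 11.2% and 13.6% of all genes. In pups labelled Fgf10+/- 1 rose under hyperoxia (median 0.38). The interaction passed for 0 of these 5 in limma, with 4 at an unadjusted p under 0.05, against 6.62% of all genes. Between the genotypes 1 heart muscle gene was lower in normoxia arrays labelled Fgf10+/- (median -0.81). These genotype calls were lost when only the groups compared were fitted. In a homogenate, fewer cells of a type and less RNA per cell cannot be told apart. The part of these markers and of the mitosis genes in the clock gene differences was not tested.

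Signals known to set or move peripheral clocks were read from 3 further lists. Of 11 glucocorticoid-responsive genes, 6 rose in hyperoxia of pups labelled Fgf10+/- and 1 in WT pups, with medians of 0.50 and 0.26, against 13% and 10.3% of all genes that rose. At an unadjusted p under 0.05 the counts were 7 and 6, against 34.2% and 31.1% of all genes. The interaction passed for 0 of the 11 in limma, with 3 at an unadjusted p under 0.05, against 6.62% of all genes. Between the genotypes 0 passed at either oxygen level. In normoxia 5 had an unadjusted p under 0.05 and 5 were lower without overlap, against 12.9% and 4.52% of all genes. In hyperoxia these counts were 2 and 0, where 9.01% of all genes had an unadjusted p under 0.05. The metallothionein gene Mt1 rose by 1.37 (SE 0.21, limma adjusted p = 0.000330) and the stress gene Ddit4 by 0.97 (SE 0.16, adjusted p = 0.000566) in pups labelled Fgf10+/-, and the cell cycle inhibitor gene Cdkn1c by 0.59 (SE 0.12, adjusted p = 0.00343). In WT pups the gene that passed was Cdkn1c, which rose by 0.61 (SE 0.12, limma adjusted p = 0.00337). Over arrays the mean level of the list had its lowest median in normoxia of pups labelled Fgf10+/-, at 9.74, against 10.21 in their hyperoxia arrays, 10.41 in WT hyperoxia and 10.19 in WT normoxia. Their part in the clock gene differences was not tested.

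None of 10 immediate-early genes passed in limma in any of the 4 comparisons. Between 0 and 2 had an unadjusted p under 0.05, against 9.01% to 34.2% of all genes. Of 8 temperature-responsive genes tested, Dnajb1, a heat shock gene, fell by 0.81 in both genotypes (SE 0.22, limma adjusted p = 0.0162 in pups labelled Fgf10+/- and 0.0199 in WT pups), and with 1 array left out in turn these calls did not hold in 1 and 2 of 16 fits. The cold-induced gene Rbm3 fell by 0.41 in pups labelled Fgf10+/- and by 0.40 in WT pups (SE 0.12, adjusted p = 0.0206 and 0.0274), calls that were lost with the mean of all its features (adjusted p = 0.352 and 0.329). Hspa8, a constitutive heat shock protein gene, rose by 0.43 in WT pups (SE 0.11, adjusted p = 0.0106), but with the mean of all its features the difference was 0.07 (adjusted p = 0.813). Their part was not tested either.

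The WT differences were also fitted without the WT normoxia array with muscle and brown fat signal. Without it Arntl differed by 0.80 (limma adjusted p = 0.00119), Clock by 0.49 (adjusted p = 0.0175), Dbp by -2.23 (adjusted p = 0.00140) and Nr1d2 by -1.37 (adjusted p = 0.000765). The same 4 clock genes passed.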

How the data were processed

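Total RNA of 16 lung homogenates was labelled with Cy3 and hybridised to one-colour Agilent arrays, per the labels' protocols. The deposited values are log2 intensities of 62976 features as the authors deposited them, with no further scaling. The log2 scale was read from the range of the values and is not stated in the table. Their normalization was not stated, and array medians agree within 0.000677. Background correction, slide and scan batch are also not given. Of the features, 31465 name 1 gene, 0 several and 31511 none. Symbols were updated through RefSeq (GRCm38.p6) accessions for 29036 features, were current for 2075, were unique synonyms for 349 and stayed as annotated for 5.

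Features exceeding their array's 25th percentile (3.69 in the median array) in 4 or more arrays were kept, and the kept feature with the highest mean stood for its gene. One limma 3.58.1 model (R 4.3.3) held a mean per group of all 16 arrays, with 12 residual and 2.13 prior degrees of freedom, and 33 values were missing. Benjamini-Hochberg adjustment ran over 20173 genes. The procedure was tested on simulated data. Exact two-sided permutation of arrays served for single genes, and 100000 permutations within groups for relations between genes. The number of arrays limits precision.

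All 10 clock genes are named in every comparison. Of each other list up to 4 genes with the smallest p in a comparison are named, as are the 5 genes most like Arntl and the 5 most like Dbp. The clock genes and the lists were chosen with earlier results of these data known.

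Same-numbered arrays correlated weakly in their deviations (-0.029 to 0.087), so the design was taken as unpaired. Alternatives changed 1 choice at a time: the filter, the mean of features, scaling to the 75th percentile, quantile normalization, trend and robust moderation, array weights, only the groups compared, the replicate number as a block, and each array left out.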

Additional observations from a re-analysis of the deposited data

Results flagged for a closer look

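In each of 40 groups of 4 arrays (10 clock genes in 4 groups) the array farthest out was compared with the rest of its group by Dixon's ratio, which chance exceeds in about 1 of 20 groups. It was exceeded 3 times, each time by the lowest WT normoxia array. Per1 stood at 9.47 in replicate 4, against 10.38 to 10.47 in the other 3 arrays. Cry2 stood at 10.19 in the same array, against 10.60 to 10.61 in the others. This is the array with signals of skeletal muscle (mean 7.85) and brown fat (7.57), and their part in both values was not tested. Per1 was lowest in replicate 4 also in WT hyperoxia (9.49) and in normoxia arrays labelled Fgf10+/- (9.44), which carry no such signal, and not in hyperoxia arrays labelled Fgf10+/- (10.24). Per3 stood at 4.86 in replicate 3, against 5.22 to 5.29 in the others, at a dim signal.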

How the results depend on the processing

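Over 9 other settings, 419 of 435 values kept their direction and their side of the threshold, and with 1 array left out 744 of 800 did. Arntl, Dbp and Nr1d2 in WT hyperoxia and Nr1d2 in hyperoxia of pups labelled Fgf10+/- passed under every one of these. For a comparison of 2 groups, leaving out an array of another group changes the pooled spread but not the difference. Part of the agreement over the 800 values is therefore given in advance. Clock genes called in hyperoxia of pups labelled Fgf10+/- numbered 3 with the filter at the 50th percentile (Cry2, Dbp, Nr1d2), where fewer genes are tested, 2 with the mean of features (Dbp, Nr1d2), 2 with trend and robust moderation and 2 with array weights (Cry2, Nr1d2), against 1 in the model reported, and 1 to 3 without 1 array. Between the genotypes in normoxia the count was 0 with the mean of features and 0 with only the groups compared, against 1, and 0 to 2 without 1 array. In WT hyperoxia Clock was lost with trend and robust moderation (adjusted p = 0.0556, limma) and with only the groups compared (0.0646), while Per2 passed under both (0.0350 and 0.0113), with array weights (0.0317), with the 50th percentile filter (0.0391) and in 4 fits without 1 array. With the replicate block the clock gene counts stayed at 4, 1, 1, 0 and 0 for WT hyperoxia, hyperoxia of pups labelled Fgf10+/-, the genotypes in normoxia and in hyperoxia, and the interaction. The replicate block changed no clock gene call.

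Signs turned only for differences far from the threshold. With the mean of features Per1 gave 0.26 in WT hyperoxia and -0.19 between the genotypes in hyperoxia, its second feature being dim. Array weights gave Nr1d1 an interaction of 0.10, and the correlation of Arntl with Nr1d1 became 0.054 without 2 arrays. With 1 array left out, WT hyperoxia differences ranged between -0.38 and 0.042 for Per1 and -0.36 and 0.14 for Cry1. In hyperoxia of pups labelled Fgf10+/- they ranged between -0.10 and 0.62 for Per3 and -0.35 and 0.11 for Cry1. Between the genotypes in normoxia they ranged between -0.41 and 0.020 for Per1 and -0.13 and 0.37 for Cry1. In hyperoxia the ranges were -0.0072 to 0.34 for Per1, -0.21 to 0.10 for Per2, -0.43 to 0.28 for Per3, -0.12 to 0.34 for Cry1, -0.11 to 0.017 for Cry2 and -0.26 to 0.42 for Dbp. Interactions ranged between -0.26 and 0.24 for Cry1 and -0.32 and 0.19 for Nr1d1. The cause was not tested. Over all genes, 145 passed between the genotypes in normoxia, against 283 with the 50th percentile filter, 94 with the mean of features, 433 with trend and robust moderation, 290 with array weights and 0 with only the groups compared. In hyperoxia 83 passed, against 126, 223 with trend and robust moderation, 37 with the replicate block and 0 with only the groups compared. With 1 array left out these counts ranged between 44 (without WT normoxia replicate 1) and 292 (without WT normoxia replicate 4) in normoxia and between 13 (without hyperoxia replicate 4 labelled Fgf10+/-) and 80 in hyperoxia. They moved by over 1.5 times also without WT normoxia replicates 2 and 3 (68 and 65) or normoxia replicates 2 and 4 labelled Fgf10+/- (68 and 59). In hyperoxia they did without any WT hyperoxia array (20 to 46), hyperoxia replicates 2 and 3 labelled Fgf10+/- (21 and 30) or normoxia replicates 2 and 4 labelled Fgf10+/- (55 and 51). Per3, Cry1 and Nr1d1 lie near the median of all features, where dim signal limits what can be read.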

Other observations

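After the values were seen, all 45 pairs of clock genes were compared in their deviations from group means over 16 arrays. Dbp and Nr1d2 deviated together, with r = 0.93 (permutation p = 0.00015, adjusted over 45 pairs 0.00675) and rho = 0.91 (permutation p = 2e-05, adjusted 0.0009). Without the 2 arrays farthest from the median, hyperoxia replicates 3 and 4 labelled Fgf10+/-, r was 0.83. No other pair passed, the next being Clock and Per1 at r = -0.80 (permutation p = 0.0031, adjusted 0.0697). Dbp lay 1.0 above its group mean in hyperoxia replicate 3 labelled Fgf10+/- and at -1.05 from it in replicate 4, where Nr1d2 lay 0.65 above its own mean and at -0.46 from it. Replicate 4 is the array with the highest heart muscle mean (11.03, raised mainly by Nppa), whose part was not tested. As background, both genes are driven by the same activator, as is Nr1d1, whose signal here was dim.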
